A study of Mus musculus with 12 samples.

Results

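The response of the duodenum to corticosterone (CORT) was described in 13607 genes, out of the 55416 in the table, whose mean was at least 1 TPM, the number of a gene's transcripts among a fixed large total of transcripts, in either group. The series holds 12 RNA-seq libraries, of which 6, labelled intestine and described as duodenum in the study's methods, are compared here. They came from male C57BL6/J mice that were 8 weeks old at the start and were injected under the skin every day for 8 weeks with CORT at 40 mg/kg (CORT group, libraries CORT1, CORT2 and CORT3) or with vehicle, which held DMSO, Tween-80 and water (Veh group, libraries Veh1, Veh2 and Veh3). The RNA of each library came from 50 mg of frozen duodenum, and the study's methods describe no separation of its layers. A library can therefore hold RNA of the epithelium, the connective tissue, the muscle wall, vessels and immune cells together. The labels call the libraries biological replicates and do not say whether samples were pooled. The comparison asks which transcripts of the upper small intestine differ after long exposure to a glucocorticoid.

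CORT is the main glucocorticoid of rodents. It binds the glucocorticoid receptor (Nr3c1), which then acts as a transcription factor on genes such as Fkbp5 and Tsc22d3, and through them dampens immune responses and shifts fuel use. The duodenum digests and absorbs food with enterocytes on its villi, renews them from dividing cells in the crypts, and keeps IgA-secreting plasma cells and lymphocytes in its wall.

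TPM are scaled within a library, to a summed 993160 to 997319 here, which hides how many reads each value rests on, and counting error is not available. Between 19466 and 20446 genes were above 0 in each library. The tissue label was checked against genes that mark duodenum and its neighbours. Vil1 of the brush border was between 839 and 1436 TPM in all 6 libraries, Gata4, a transcription factor of the proximal small intestine, between 78.6 and 113 TPM, and Lct, the milk sugar enzyme lactase, between 203 and 602 TPM. Markers of ileum (Fabp6, Slc10a2), colon (Car1) and liver (Alb) stayed below 1 TPM in every library, and Gkn2 of the stomach was listed at 0 in all 6. Pdx1, a transcription factor of duodenum and pancreas, was at 32.4, 23.9 and 8.13 TPM in CORT1, CORT2 and CORT3 and at 13.4, 41.9 and 40.6 TPM in Veh1, Veh2 and Veh3, and so was uneven within both groups.

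Of the vehicle libraries, Veh2 and Veh3 stood apart. For 100 of the 13607 genes, Veh2 and Veh3 were each over 2 times the highest of Veh1 and the CORT libraries, and these genes are described separately, since the rule that chose them used their values. Of the 38 genes of a list for pancreatic acinar cells, which make digestive enzymes, 35 were tested and 30 were among the 100. The acinar list made up 4.57% of summed TPM in Veh2 and 3.83% in Veh3, while its share was 0.259% in Veh1 and 0.434%, 0.421% and 0.287% in CORT1, CORT2 and CORT3. Ctrb1, the precursor of chymotrypsin, was at 7733 and 6026 TPM in Veh2 and Veh3, at 14.5 TPM in Veh1, and below 1 TPM in the CORT libraries. The other most abundant genes with this pattern were the elastases Cela2a and Cela1, the trypsins Prss2, Try4 and Try5, the amylase Amy2a3, the lipase Pnlip, its cofactor Clps, and S100g. Of these, Prss2 was at 3289 and 2724 TPM in Veh2 and Veh3, 2.29 TPM in Veh1 and at most 0.1 TPM in the CORT libraries. Trypsins and amylases form families so alike that reads may be assigned to the wrong member. Of the islet hormones, Ins2 (insulin) was at 4.97 and 25.4 TPM in Veh2 and Veh3 and listed at 0 in the other 4 libraries.

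The pattern was not made of pancreatic enzymes alone. S100g, the calcium-binding protein of absorbing enterocytes, was at 212, 116 and 11.96 TPM in CORT1, CORT2 and CORT3 and at 75.8, 3723 and 2428 TPM in Veh1, Veh2 and Veh3. Slc40a1, the iron exporter ferroportin, was at 56.03, 23.6 and 3.22 TPM in the CORT group and at 11.8, 263 and 302 TPM in the Veh group, so that CORT1 was higher than Veh1. Trpv6, a calcium channel, Cybrd1, an iron reductase, and 13 immunoglobulin variable segments had the pattern too. Genes just inside the limit were Otop3 and Gm45713, where the lower of Veh2 and Veh3 was 2.02 times the highest of the others in both, and the nearest outside was Igkv12-46 at 1.99 times. The part that pancreatic tissue or the position of the sample along the duodenum has in the other differences was not tested. Calls are given below with the libraries whose removal ended them.

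**Figure D1:**
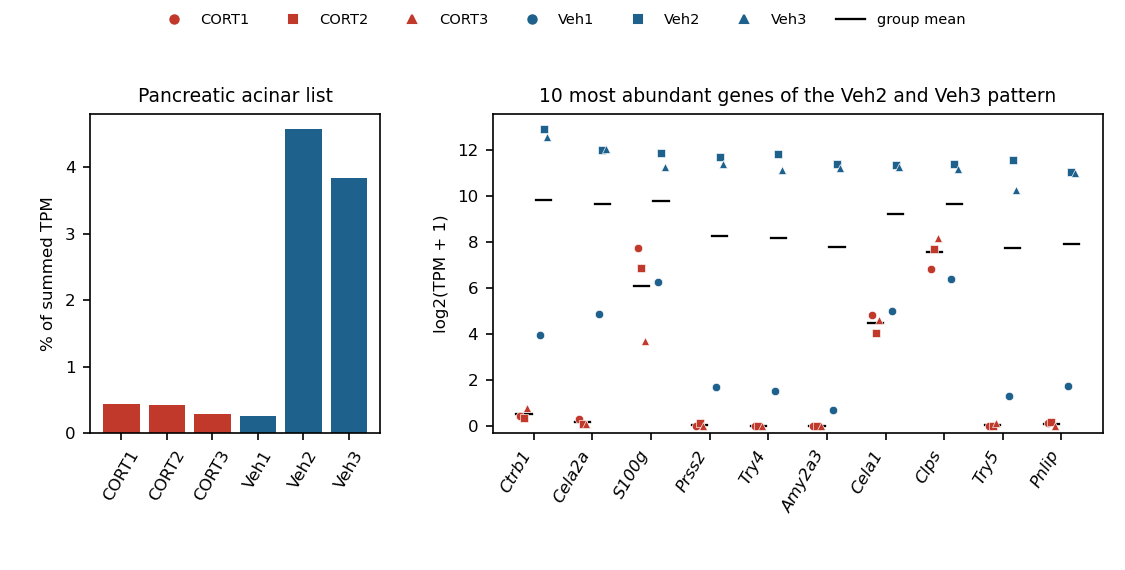
Left, the share of summed TPM taken by the 38 genes of the pancreatic acinar list in each duodenum library. Right, log2(TPM + 1) of the 10 most abundant genes of the Veh2 and Veh3 pattern, with 1 point per library and a bar at the mean of each group of 3. Veh2 and Veh3 lie above the other 4 libraries for all 10 genes, and Veh1 lies with the CORT libraries or between.

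Among the 13507 tested genes outside this pattern, 167 were called higher in CORT, which is 1.24% of them, and 123 were called lower, which is 0.911%. A gene was called when limma, which shares information on replicate spread across genes, gave a Benjamini-Hochberg adjusted p of 0.05 or less over all 13607 genes and the fold change was over 1.5, on the scale log2(TPM + 1). This scale understates the change of low genes, and all fold changes below are on it, CORT minus Veh. No CORT value overlapped the Veh values in any of the 290 called genes. Without the same limits, all CORT values lay above all Veh values in 12.3% of the 13507 genes and below them in 14.0%. In limma, 1186 of the 13507 genes were higher and 1369 lower at an unadjusted p under 0.05. Counts of list members at this limit are to be read against these numbers. Taken gene by gene, the smallest two-sided p that an exact permutation test can reach with these groups is 0.1.

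The calls depended on how many libraries were fitted. With 1 library left out, 87 genes (without CORT1), 91 (without CORT2), 68 (without CORT3), 151 (without Veh1), 62 (without Veh2) and 48 (without Veh3) were called outside the pattern, against 290 with all 6, and 32 of the 290 kept their call in all 6 of these fits. With Veh1 as the only Veh library, a choice made after seeing the data, all 290 kept the direction of their difference. The lack of overlap between the groups fixed this in advance.

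The 12 higher genes with the smallest p had several kinds of function. Lcn2, an iron-trapping antimicrobial protein, was at 55.7, 75.5 and 51.8 TPM in CORT1, CORT2 and CORT3 and at 2.49, 1.12 and 2.58 TPM in Veh1, Veh2 and Veh3 (log2 fold change 4.36, standard error 0.25, limma adjusted p = 0.00309). Nrg4, a ligand of the ErbB4 receptor, was at 18.6, 19.2 and 22.1 TPM against 4.6, 3.99 and 4.07 TPM (log2 fold change 2.002, standard error 0.13, limma adjusted p = 0.00310). G0s2, an inhibitor of the fat-splitting lipase ATGL, was at 40.3, 35.1 and 27.2 TPM against 5.83, 4.71 and 5.25 TPM (log2 fold change 2.48, standard error 0.17, limma adjusted p = 0.00310). In all of these the lowest CORT library was several times the highest Veh library. Slc47a1, an exporter of organic cations, rose from 16.5 ± 2.04 to 64.7 ± 4.2 TPM (mean ± SD, n = 3; log2 fold change 1.91, standard error 0.13, limma adjusted p = 0.00310). Acox2, a peroxisomal oxidase for branched fatty acids and bile acid precursors, was at 54.6, 39.4 and 54.4 TPM in the CORT group and 4.56, 2.66 and 5.2 TPM in the Veh group (log2 fold change 3.32, standard error 0.23, limma adjusted p = 0.00310). Rab30, a small GTPase of the Golgi, was at 189.6, 226 and 135 TPM against 17.3, 10.2 and 8.34 TPM (log2 fold change 3.86, standard error 0.29, limma adjusted p = 0.00435). CORT2 was the highest CORT library for Rab30 and the lowest for Acox2, so that the order within the CORT group was not shared between genes.

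The remaining higher genes of the 12 were Fkbp5 and Clec4f, described below, and Zdhhc15, Sema5a, Amhr2 and Atp8a1. Atp8a1, a flippase that moves phospholipids across membranes, rose from 6.49 ± 0.995 to 21.9 ± 1.63 TPM (mean ± SD, n = 3; log2 fold change 1.62, standard error 0.14, limma adjusted p = 0.00621). Sema5a, a guidance molecule, was at 12.7, 11.9 and 11.4 TPM against 3.86, 3.45 and 3.4 TPM (log2 fold change 1.51, standard error 0.12, limma adjusted p = 0.00450), and Zdhhc15, an enzyme that attaches palmitate to proteins, at 6.3, 7.29 and 5.87 TPM against 0.73, 0.57 and 0.61 TPM (log2 fold change 2.19, standard error 0.15, limma adjusted p = 0.00310). Amhr2, the receptor of anti-Müllerian hormone, was at 3.08, 3.61 and 3.35 TPM in the CORT group, and at 0.08 TPM in Veh3, and it was listed at 0 in the other Veh libraries. All 12 were called again in every one of the 6 fits without a library.

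Among the 12 lower genes with the smallest p, 6 were immunoglobulin variable segments. Apol10a, of the apolipoprotein L family whose similar members can share reads, was at 4.85, 7.51 and 6.5 TPM in CORT1, CORT2 and CORT3 and at 89.9, 56.4 and 70.7 TPM in Veh1, Veh2 and Veh3 (log2 fold change -3.32, standard error 0.21, limma adjusted p = 0.00310). Cyp2c55, a cytochrome P450 that oxidises fatty acids, was at 3.77, 5.7 and 6.88 TPM against 43.3, 42.8 and 45.4 TPM (log2 fold change -2.83, standard error 0.19, limma adjusted p = 0.00310). For Cyp2c55 the Veh libraries lay close together and far above the highest CORT library. Eepd1, a nuclease also tied to cholesterol export, was at 4.37, 4.61 and 5.42 TPM against 15.9, 16.5 and 18.6 TPM (log2 fold change -1.64, standard error 0.13, limma adjusted p = 0.00450). Sprr2a1 and Sprr2a2, small proline-rich proteins of the epithelial surface, are near-identical copies. Sprr2a2 was at 631, 369 and 419.6 TPM against 4221, 11467 and 4836 TPM (log2 fold change -3.74, standard error 0.40, limma adjusted p = 0.0110), and Sprr2a1 at 10.4, 5.82 and 5.41 TPM against 40.6, 45.9 and 51.3 TPM (log2 fold change -2.56, standard error 0.24, limma adjusted p = 0.00621). Aqp8, a water channel, was at 1.59, 0.4 and 1.47 TPM against 15.3, 9.19 and 13.2 TPM (log2 fold change -2.68, standard error 0.29, limma adjusted p = 0.0110). Sprr2a2 lost its call without CORT2, CORT3 or Veh3, and Aqp8 without CORT3 or Veh3.

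**Figure D2:**
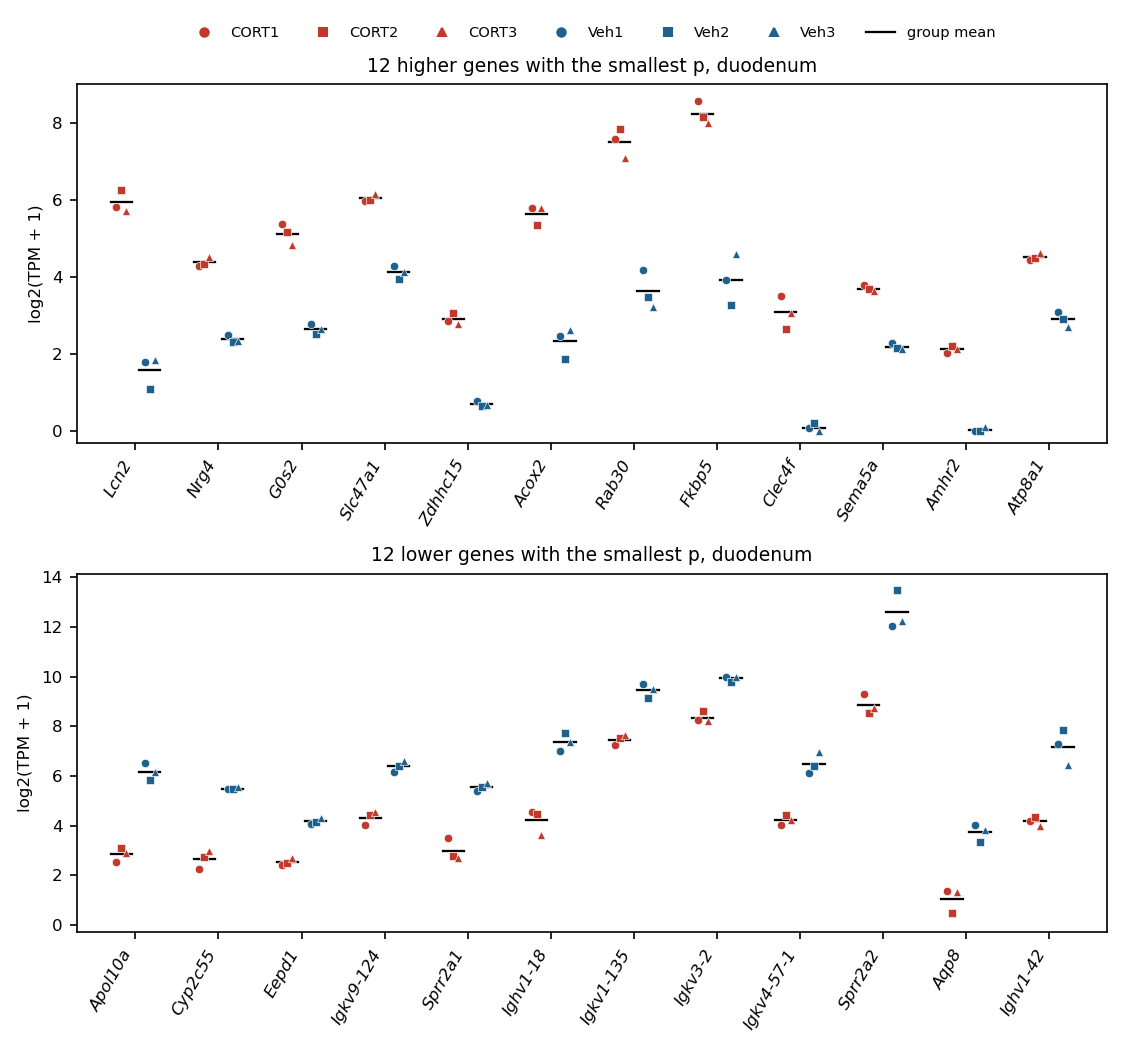
Values as log2(TPM + 1) of the 12 higher genes (top) and 12 lower genes (bottom) with the smallest p among called genes whose groups did not overlap, with 1 point per duodenum library and a bar at each group mean. CORT points lie above all Veh points for every gene in the upper panel and below them for every gene in the lower panel, as the choice of genes requires.

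Genes known to be induced by glucocorticoids were mostly higher on average. Of 23 tested genes of a list of glucocorticoid-induced genes, 21 were higher on average in CORT. Called higher were 8 (against 1.24% of all genes), and none was called lower. The median log2 fold change was 1.14, against -0.01 over all 13507 genes. Fkbp5, a chaperone partner that feeds back on the receptor, was at 379, 281 and 252 TPM in CORT1, CORT2 and CORT3 and at 14.04, 8.68 and 23.3 TPM in Veh1, Veh2 and Veh3 (log2 fold change 4.300, standard error 0.34, limma adjusted p = 0.00450). Zbtb16, a zinc finger repressor, was at 13.3, 9.43 and 7.01 TPM against 0.16, 0.23 and 0.84 TPM (log2 fold change 2.94, standard error 0.28, limma adjusted p = 0.00621). Pdk4, the kinase that blocks glucose oxidation at pyruvate dehydrogenase, was at 135, 124 and 77.4 TPM against 12, 8.8 and 18.4 TPM (log2 fold change 3.03, standard error 0.30, limma adjusted p = 0.00809). In these 3 genes the highest Veh library was Veh3, and it still lay far below the lowest CORT library. Tsc22d3, the anti-inflammatory mediator GILZ, was at 169.79, 172 and 105 TPM against 31.2, 30.98 and 46.04 TPM (log2 fold change 2.01, standard error 0.25, limma adjusted p = 0.0185). The other called members were Hif3a (2.32), Glul (1.27), Cry1 (1.14) and Angptl4 (3.504), given as log2 fold changes. Angptl4, an inhibitor of lipoprotein lipase, was uneven, at 145, 72.7 and 65.5 TPM against 4.37, 3.24 and 20.5 TPM. Fkbp5 and Zbtb16 kept their call in all 6 fits without a library, while Pdk4 lost it without CORT2 and Tsc22d3 without CORT1, CORT2 or Veh2. Hif3a lost it without CORT3, Veh2 or Veh3, Cry1 in 5 of the 6 fits (not without Veh1), Angptl4 in 5 (not without Veh3), and Glul in all 6.

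The receptors of CORT were measured too. Nr3c1 was at 9.2, 20.98 and 17.6 TPM in CORT1, CORT2 and CORT3 and at 18.2, 14.9 and 16.2 TPM in Veh1, Veh2 and Veh3, so that the groups overlapped (log2 fold change -0.11, standard error 0.28, limma adjusted p = 0.859). Nr3c2, the mineralocorticoid receptor, which also binds CORT, fell from 9.44 ± 0.952 to 4.06 ± 0.868 TPM (mean ± SD, n = 3; log2 fold change -1.06, standard error 0.17, limma adjusted p = 0.0336), a call lost in all 6 fits without a library. Hsd11b2, the enzyme that inactivates CORT inside cells, was at 21.4, 14.8 and 18.9 TPM against 4.6, 4.36 and 3.28 TPM (log2 fold change 1.93, standard error 0.18, limma adjusted p = 0.00621) and was called in all 6 of those fits. Of the 10 tested genes of receptors and steroid metabolism, Hsd11b2 was the only one called higher (against 1.24% of all genes). Nr3c2 was the only one called lower (against 0.911%).

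Genes of the circadian clock, some of which the glucocorticoid receptor controls, were called in both directions. Of 17 tested members, 5 were called higher (against 1.24% of all genes) and 1 lower (against 0.911%). The median log2 fold change was 0.58. Nr1d1 (REV-ERB alpha), a repressor of the core clock genes, was at 15.4, 8.97 and 17.4 TPM in the CORT group and 80.1, 51.9 and 57.9 TPM in the Veh group (log2 fold change -2.13, standard error 0.27, limma adjusted p = 0.0189). Hlf, an output factor of the clock, rose by 1.302, Bhlhe40, a repressor, by 1.15 and Cry2, a repressor too, by 0.95 (limma adjusted p = 0.0185, 0.0248 and 0.0310). Cry1, given above, was higher too. Arntl, the core activator, was at 3.4, 6.36 and 3.23 TPM against 6.66, 2.96 and 3.9 TPM, with overlapping groups (log2 fold change -0.04, standard error 0.31, limma adjusted p = 0.959). In the fits without a library, Nr1d1 and Hlf lost the call without CORT1, CORT3, Veh2 or Veh3, Bhlhe40 without CORT3, Veh1, Veh2 or Veh3, and Cry2 in all 6 fits. The hour at which tissue was taken is not given in the sources used here.

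Promoters were searched for the sequence the receptor binds. RefSeq promoter windows (GRCm38.p6, 250 bases before to 50 after a transcription start, 300 in all) matched 10059 of the 13450 symbols tested outside the pattern. The half-site TGTTCT, on either strand, was in a window of 22.7% of 128 matched genes called higher, 12.9% of 70 called lower and 15.2% of all 10059. By window rather than by gene it was in 20.3% of 158, 12.5% of 88 and 13.04% of 12832 windows. The full response element, written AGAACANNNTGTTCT and the same when read on the other strand, was searched with at most 2 mismatches over its 12 fixed bases, and it overlaps a half-site wherever 1 of its arms is intact. It was in a window of 4 genes called higher (3.13% of 128), 1 called lower (1.43% of 70) and 138 in all (1.37% of 10059). The 4 higher genes were Car14, Gimd1, Klk1b24 and Sult1a1, and no window of Fkbp5 or Lcn2 held either motif. A match of letters is a description and not a binding site, and receptor binding far from the start could not be seen in these windows. The windows of 3 of the matching genes, and that of Fkbp5 for contrast, are shown 5′ to 3′ on the gene's strand with the arms of the element in capitals, of which Fkbp5 has none.
Car14 (chr3:95904636-95904935, minus strand): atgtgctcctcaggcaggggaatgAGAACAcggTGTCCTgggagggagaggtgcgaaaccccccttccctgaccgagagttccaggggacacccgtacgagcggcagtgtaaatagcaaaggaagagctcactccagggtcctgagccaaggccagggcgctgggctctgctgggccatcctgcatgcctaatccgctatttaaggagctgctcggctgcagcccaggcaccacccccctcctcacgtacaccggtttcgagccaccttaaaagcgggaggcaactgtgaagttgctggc
Sult1a1 (chr7:126676369-126676668, minus strand): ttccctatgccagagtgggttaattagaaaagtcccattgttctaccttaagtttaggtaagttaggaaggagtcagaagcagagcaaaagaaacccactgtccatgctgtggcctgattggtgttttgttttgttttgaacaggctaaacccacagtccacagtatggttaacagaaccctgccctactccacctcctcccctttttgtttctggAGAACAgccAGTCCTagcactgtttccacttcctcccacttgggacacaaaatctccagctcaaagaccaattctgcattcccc
Klk1b24 (chr7:44187986-44188285, plus strand): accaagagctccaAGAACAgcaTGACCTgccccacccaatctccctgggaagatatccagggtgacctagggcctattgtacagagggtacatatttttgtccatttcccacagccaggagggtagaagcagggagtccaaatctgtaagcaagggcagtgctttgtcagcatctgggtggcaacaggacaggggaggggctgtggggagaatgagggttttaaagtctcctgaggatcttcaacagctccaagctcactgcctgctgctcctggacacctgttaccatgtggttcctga
Fkbp5 (chr17:28486100-28486399, minus strand): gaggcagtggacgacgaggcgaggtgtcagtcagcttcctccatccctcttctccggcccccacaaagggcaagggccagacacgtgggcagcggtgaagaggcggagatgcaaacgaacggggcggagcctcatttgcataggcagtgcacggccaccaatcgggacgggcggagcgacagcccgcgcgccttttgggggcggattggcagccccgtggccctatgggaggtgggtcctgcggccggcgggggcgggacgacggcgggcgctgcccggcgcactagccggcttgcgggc

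The element of Car14 began 226 bases before the start with 1 mismatch, that of Sult1a1 34 bases before with 2, and that of Klk1b24 237 bases before with 2. Car14, a membrane carbonic anhydrase, was at 2.98, 2.63 and 4.01 TPM in the CORT group and 0.39, 0.68 and 0.2 TPM in the Veh group (log2 fold change 1.56, standard error 0.22, limma adjusted p = 0.0253). Sult1a1, a sulfotransferase for phenols, was at 16.1, 21.1 and 20.5 TPM against 2.84, 3.05 and 6.32 TPM (log2 fold change 2.05, standard error 0.26, limma adjusted p = 0.0189). Klk1b24, a kallikrein of a family of very similar genes, was at 6.35, 8.16 and 5.31 TPM in the CORT group, listed at 0 in Veh1 and at 0.49 and 0.33 TPM in Veh2 and Veh3 (log2 fold change 2.58, adjusted p = 0.00621 in limma). Klk1b24 kept its call in all 6 fits without a library, Car14 in none and Sult1a1 only without Veh1 or Veh3.

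Genes of fat absorption, a main task of the duodenum, were mostly higher on average. Of 29 genes of fat uptake and chylomicron assembly, 21 were higher on average, 13 had all CORT values above all Veh values (against 12.3% of all genes) and 3 were called higher (against 1.24%), with a median log2 fold change of 0.47, and 0.23 with Veh1 as the only Veh library. Dgat2, which completes triglycerides, was at 1265, 982 and 1078 TPM in CORT1, CORT2 and CORT3 and at 354, 248 and 268 TPM in Veh1, Veh2 and Veh3 (log2 fold change 1.94, standard error 0.18, limma adjusted p = 0.00621). Apob, the protein backbone of chylomicrons, was at 679, 1012 and 797 TPM against 379, 221 and 216 TPM (log2 fold change 1.64, standard error 0.26, limma adjusted p = 0.0325). Sar1b, the GTPase that carries chylomicrons out of the endoplasmic reticulum, was at 345, 351 and 336 TPM against 231, 201 and 209 TPM (log2 fold change 0.69, standard error 0.12, limma adjusted p = 0.0392). Veh1 was the highest Veh library for all 3, although still below every CORT library. Cd36, a fatty acid carrier, was at 57.6, 82.2 and 129.66 TPM against 45.2, 21.9 and 23.3 TPM and Fabp1, which binds fatty acids in the cell, at 13242, 13899.9 and 13051 TPM against 10617, 6819.81 and 6814 TPM, and neither passed (limma adjusted p = 0.0879 and 0.127). The call of Dgat2 was lost without Veh3, that of Apob in 5 of the 6 fits without a library (not without Veh1), and that of Sar1b in all 6.

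Fatty acid oxidation and ketogenesis held called genes in 1 direction, upward. Of 19 tested members 18 were higher on average and 5 were called higher (against 1.24% of all genes), with a median of 0.26. Acot1, a thioesterase that releases fatty acids from coenzyme A, was at 59.9, 45.03 and 120.25 TPM in the CORT group and 6.57, 7.79 and 6.92 TPM in the Veh group (log2 fold change 3.11, standard error 0.33, limma adjusted p = 0.0110), and its close paralog Acot2, with which it can share reads, at 17.1, 12.2 and 16.9 TPM against 2.96, 5.73 and 2.59 TPM (log2 fold change 1.82, standard error 0.26, limma adjusted p = 0.0272). CORT3 was the highest library for Acot1, and Veh2 the highest Veh library for both. Ppara, the fatty acid receptor that switches on these genes, rose from 10.9 ± 2.36 to 26.5 ± 4.82 TPM (mean ± SD, n = 3; log2 fold change 1.21, standard error 0.19, limma adjusted p = 0.0329). Slc25a20, the carnitine carrier of mitochondria, rose by 0.87 (limma adjusted p = 0.0392). By contrast Cpt1a, which admits fatty acids to mitochondria, was at 78.1, 59.9 and 79.9 TPM against 53.8, 69.97 and 70.3 TPM, with overlapping groups. Of the 6 fits without a library, Acot1 was called in 5 (not without Veh3), Acot2 only without Veh2, Slc25a20 only without CORT2, and Ppara in none.

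Genes of sugar handling were called in both directions. G6pc, the phosphatase that frees glucose, was at 101, 124 and 73.4 TPM in the CORT group and 24.8, 9.84 and 10.6 TPM in the Veh group (log2 fold change 2.73, standard error 0.36, limma adjusted p = 0.0205). Slc2a7, a hexose transporter, was at 7.33, 6.75 and 10.8 TPM in the CORT group and 24.7, 18.6 and 23.96 TPM in the Veh group (log2 fold change -1.35, standard error 0.20, limma adjusted p = 0.0272). The main glucose carriers did not pass. Slc5a1 (SGLT1) had a log2 fold change of 0.28 and Slc2a2 (GLUT2) of -0.01, with limma adjusted p = 0.445 and 0.984. Over the 15 tested members the median was 0.24, and -0.01 with Veh1 as the only Veh library. Among the 6 fits without a library, G6pc was called only without Veh1 and Slc2a7 only without CORT3.

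Of 16 amino acid and peptide transporters, 11 were lower on average. The median was -0.13, or -0.55 with Veh1 as the only Veh library. All CORT values lay below all Veh values in 5 (against 14.0% of all genes) and above them in 2 (against 12.3%). In limma, 5 were lower (against 1369 of all 13507 genes) and 2 higher (against 1186) at an unadjusted p under 0.05. Called were 1 higher (against 1.24%) and 1 lower (against 0.911%). Slc6a6, the taurine transporter, was at 91.6, 79.4 and 89.4 TPM against 48.9, 43.4 and 56.6 TPM (log2 fold change 0.800, standard error 0.14, limma adjusted p = 0.0413). Slc1a1, a carrier of glutamate and aspartate, was at 5.7, 4.63 and 6.92 TPM against 14.5, 11.7 and 11.2 TPM (log2 fold change -1.003, standard error 0.17, limma adjusted p = 0.0392). Both calls were lost in all 6 fits without a library. Digestive enzymes and structural proteins of the brush border held no called gene in limma among 25 tested, with a median log2 fold change of -0.02. At an unadjusted p under 0.05, 1 of them was higher and 0 lower. Mgam, maltase-glucoamylase, was at 827, 729.57 and 706 TPM against 684, 421 and 637 TPM (log2 fold change 0.404, standard error 0.21, limma adjusted p = 0.338). Sis, sucrase-isomaltase, was at 599.5, 865 and 723 TPM against 817, 684 and 694 TPM, with overlapping groups.

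Handling of metals and vitamins is a further task of the duodenum. Of 19 members outside the Veh2 and Veh3 pattern none was called in limma, and 4 members, S100g, Slc40a1, Cybrd1 and Trpv6, had the pattern. Heph, the copper oxidase that works with ferroportin, was at 113, 110.36 and 105 TPM against 77.7, 64.9 and 73.2 TPM (log2 fold change 0.600, standard error 0.12, limma adjusted p = 0.0598), and Bco1, which splits beta-carotene, at 4.56, 4.7 and 1.86 TPM against 0.69, 0.7 and 0.51 TPM (log2 fold change 1.46, standard error 0.29, limma adjusted p = 0.0598). At an unadjusted p under 0.05 in limma, 4 members were higher (against 1186 of all 13507 genes) and 1 was lower (against 1369).

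Among 26 genes of ion and water transport, Guca2b had the largest difference upward. This precursor of uroguanylin, the peptide that opens chloride secretion through the receptor Gucy2c, was at 10795, 8218 and 13237 TPM in CORT1, CORT2 and CORT3 and at 3159.9, 1880.09 and 2325 TPM in Veh1, Veh2 and Veh3 (log2 fold change 2.14, standard error 0.26, limma adjusted p = 0.0181). Slc4a7, a sodium bicarbonate cotransporter, was at 17.9, 19.99 and 14.5 TPM against 38.4, 64.1 and 86.6 TPM (log2 fold change -1.73, standard error 0.29, limma adjusted p = 0.0373). Cftr, the chloride channel, was at 15.5, 19.3 and 18.2 TPM against 15.95, 14.1 and 15.5 TPM and Slc9a3, the sodium-proton exchanger, at 39.3, 35.7 and 38.6 TPM against 59.8, 39.6 and 35.3 TPM, both with overlapping groups. The call of Guca2b held only without CORT2 or Veh1, and that of Slc4a7 only without Veh1. Of 17 junction genes, Cldn23, a claudin, was the only one called (against 0.911% of all genes called lower). Cldn23 fell from 17.2 ± 2.01 to 10.4 ± 0.202 TPM (mean ± SD, n = 3; log2 fold change -0.67, standard error 0.13, limma adjusted p = 0.0489), a call lost in all 6 fits without a library.

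Enzymes of drug and toxin metabolism were called in both directions. Of 41 tested members, 5 were called higher (against 1.24% of all genes) and 2 lower (against 0.911%), and the median was 0.18. Cyp3a11, the main P450 for steroids and drugs in mouse gut, was at 1953, 2674 and 1849.61 TPM in the CORT group and 329, 412 and 544 TPM in the Veh group (log2 fold change 2.34, standard error 0.23, limma adjusted p = 0.00789). Cyp2b10 was at 1143, 1050.25 and 1064 TPM against 575, 424 and 501 TPM (log2 fold change 1.13, standard error 0.15, limma adjusted p = 0.0215), and Cyp4b1 at 245, 199 and 285 TPM against 62.7, 79.97 and 94.03 TPM (log2 fold change 1.61, standard error 0.20, limma adjusted p = 0.0185). All 3 are P450 enzymes, and each CORT library exceeded each Veh library. Sult1d1, a sulfotransferase, rose by 1.62 (limma adjusted p = 0.0381). Nqo1, a quinone reductase controlled by NRF2, was at 20.7, 17.01 and 14.5 TPM against 42.5, 66.8 and 55.4 TPM (log2 fold change -1.59, standard error 0.20, limma adjusted p = 0.0189), and Cyp2c55, given above, was the other lower member. Cyp2c29, of the same family as Cyp2c55, was at 12.2, 13.8 and 19.3 TPM against 64.01, 391 and 73.5 TPM, where Veh2 was far above the other Veh libraries, and did not pass (log2 fold change -2.97, standard error 0.65, limma adjusted p = 0.0737). Cyp3a11 and Cyp2c55 were called in all 6 fits without a library. The call of Cyp4b1 held only without CORT2 or Veh1, that of Nqo1 only without CORT1 or Veh1, that of Cyp2b10 only without Veh1, and that of Sult1d1 in none.

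Genes of cholesterol synthesis and uptake were mostly lower on average. Of 20 tested genes 15 were lower on average, 4 were called lower (against 0.911% of all genes) and none higher, with a median of -0.37. The called members were enzymes at separate steps: Mvd in the mevalonate pathway, Fdft1 and Sqle at squalene, and Dhcr7 at the last step. Fdft1 was at 9.58, 12.2 and 9.51 TPM in CORT1, CORT2 and CORT3 and at 19.6, 20.2 and 17.95 TPM in Veh1, Veh2 and Veh3 (log2 fold change -0.83, standard error 0.14, limma adjusted p = 0.0358), and Sqle at 6.93, 10.5 and 6.57 TPM against 19.4, 18.3 and 15.4 TPM (log2 fold change -1.07, standard error 0.19, limma adjusted p = 0.0448). CORT2 was the highest CORT library for both. Dhcr7 fell from 33.8 ± 6.57 to 16.5 ± 2.54 TPM and Mvd from 15.8 ± 0.171 to 7.49 ± 1.9 TPM (mean ± SD, n = 3), with log2 fold changes of -0.98 and -1.01 (limma adjusted p = 0.0469 and 0.0470). Fdft1 and Sqle were called among the fits without a library only without CORT2, and Dhcr7 and Mvd in none.

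**Figure D3:**
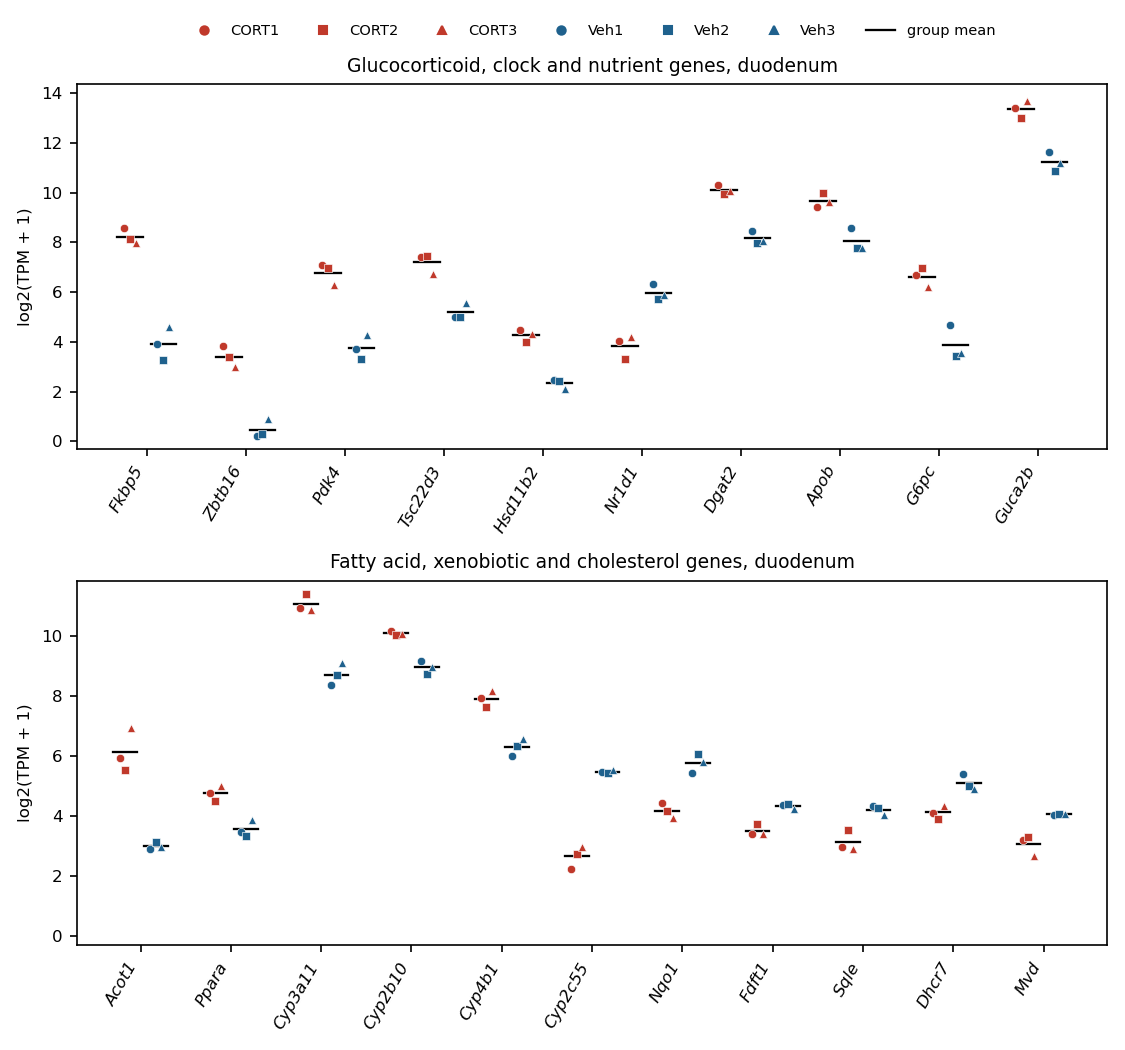
Values as log2(TPM + 1) of genes of the glucocorticoid response, clock and nutrient handling (top) and of fatty acid use, xenobiotic metabolism and cholesterol synthesis (bottom), with 1 point per duodenum library and a bar at each group mean. CORT points lie above all Veh points from Fkbp5 to Guca2b, apart from Nr1d1, and from Acot1 to Cyp4b1, and below them for Nr1d1 and from Cyp2c55 to Mvd.

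Secretory and crypt cell types showed few called genes. None was called among 14 goblet cell genes (median log2 fold change 0.10), 14 Paneth cell genes (0.46), 13 tuft cell genes (-0.46) or 18 genes of crypt stem cells and Wnt targets (-0.07) in limma. At an unadjusted p under 0.05, 2 goblet cell genes and 1 Paneth cell gene were higher (against 1186 of all 13507 genes). None of the tuft cell or crypt lists was in either direction. Muc2, the gel-forming mucin, was at 81.3, 60.6 and 56.1 TPM in the CORT group and 50.9, 44.3 and 49.7 TPM in the Veh group (log2 fold change 0.43, standard error 0.17, limma adjusted p = 0.225), and Tff3, its partner in mucus, at 4850.05, 3557 and 4478 TPM against 4255, 3852 and 3967 TPM (log2 fold change 0.08, standard error 0.17, limma adjusted p = 0.814). Galnt12, which starts mucin sugar chains, had the smallest p of the goblet list (log2 fold change 0.38, standard error 0.13, limma adjusted p = 0.191). Of the Paneth genes 13 of 14 were higher on average, but the groups overlapped for every one of them. Lyz1, lysozyme, was at 1161, 4288 and 3507 TPM against 843, 2010.34 and 2199 TPM and Mmp7, which activates defensins, at 64.2, 151 and 191 TPM against 36.04, 93.8 and 106 TPM, with CORT1 and Veh1 the lowest of their groups for both genes. Defa34 and Defa22, defensins of a family that shares reads, had the smallest p (limma adjusted p = 0.223 and 0.430). The median of the Paneth list ran from 0.09 to 0.901 over the fits without 1 library, and was 1.17 with Veh1 as the only Veh library.

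Tuft cell genes were highest in a single library. Avil was at 4.46, 3.21 and 5.81 TPM in the CORT group and 7.87, 22.5 and 5.04 TPM in the Veh group, Trpm5 at 3.21, 4.11 and 5.96 TPM against 6.46, 16.9 and 4.26 TPM, Dclk1 at 3.19, 2.17 and 2.94 TPM against 3.29, 7.3 and 2.84 TPM, and Il17rb, the receptor of IL-25, at 1.3, 0.95 and 1.07 TPM against 1.49, 5.24 and 1.34 TPM. Veh2 was the highest of the 6 for all 4, and without it the median of the tuft cell list turned from -0.46 to 0.06. None of the 4 passed (limma adjusted p = 0.314, 0.408, 0.452 and 0.399). Of 18 enteroendocrine genes, only Pcsk1, the protease that matures peptide hormones, was called higher (against 1.24% of all genes). Pcsk1 was at 4.78, 5.72 and 5.39 TPM against 2.18, 2.33 and 2.29 TPM (log2 fold change 0.94, standard error 0.14, limma adjusted p = 0.0272), and was called in none of the 6 fits without a library. Chga was at 51.7, 69.8 and 92.8 TPM against 51.8, 46.1 and 53.7 TPM and Chgb at 56.96, 104 and 94.3 TPM against 68, 73.9 and 79.7 TPM, both with overlapping groups. Lgr5, the crypt stem cell marker, was at 1.67, 2.57 and 2.84 TPM against 1.54, 1.83 and 2.28 TPM (log2 fold change 0.21, standard error 0.21, limma adjusted p = 0.602), Olfm4 at 118, 154 and 147 TPM against 212, 151 and 201 TPM (log2 fold change -0.42, standard error 0.18, limma adjusted p = 0.264), and Ascl2 at 6.53, 4.11 and 7.37 TPM against 5.21, 3.01 and 3.45 TPM (log2 fold change 0.51, standard error 0.25, limma adjusted p = 0.316).

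In the EGF family Nrg4 was the only called gene of 11 tested (against 1.24% of all genes called higher). The median log2 fold change was 0.04. Nrg1, another neuregulin, was at 1.38, 3.71 and 1.77 TPM against 0.36, 0.96 and 1.65 TPM (log2 fold change 0.71, standard error 0.35, limma adjusted p = 0.322).

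Most genes of DNA replication were lower on average. Of 27 replication genes 23 were lower on average and 16 had all CORT values below all Veh values (against 14.0% of all genes). Called lower were 2 of them (against 0.911%). The median was -0.35, and its range over the fits without 1 library was -0.42 to -0.32. Uhrf1, which carries DNA methylation through replication, was at 7.5, 7.08 and 5.9 TPM in CORT1, CORT2 and CORT3 and at 15.02, 13.8 and 13.4 TPM in Veh1, Veh2 and Veh3 (log2 fold change -0.95, standard error 0.13, limma adjusted p = 0.0242). Lig1, the ligase that joins Okazaki fragments, was at 10.4, 6.97 and 8.22 TPM against 15.6, 18.5 and 17.6 TPM (log2 fold change -0.95, standard error 0.16, limma adjusted p = 0.0392). Both calls were lost in all 6 fits without a library. Of the helicase subunits, Mcm3 was at 14.7, 11.6 and 14.5 TPM against 24.9, 19.1 and 26.9 TPM (log2 fold change -0.75, standard error 0.17, limma adjusted p = 0.0778) and Mcm2 at 14.4, 11.5 and 20.1 TPM against 12.8, 11.6 and 13.3 TPM (log2 fold change 0.23, standard error 0.20, limma adjusted p = 0.557). Among 24 mitosis genes none was called in limma, 1 was higher and 0 lower at an unadjusted p under 0.05, and the median was 0.03. Mki67, the proliferation marker Ki67, was at 11.2, 14.9 and 7.99 TPM against 13.6, 9.82 and 10.6 TPM (log2 fold change -0.02, standard error 0.23, limma adjusted p = 0.966), Top2a at 36.5, 31.1 and 26.1 TPM against 46.5, 34.6 and 35.4 TPM (log2 fold change -0.31, standard error 0.18, limma adjusted p = 0.393), and Nusap1, a spindle protein, at 12.2, 12.97 and 8.34 TPM against 6.54, 4.96 and 6.24 TPM (log2 fold change 0.803, standard error 0.19, limma adjusted p = 0.0894). The difference between the replication and mitosis lists was not tested.

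Genes that drive cell death were mostly lower on average. Of 24 tested genes 19 were lower on average, 9 had all CORT values below all Veh values (against 14.0% of all genes), and 1 was called lower (against 0.911%), with a median of -0.35, and -0.21 in the fit without 1 library that moved it most towards 0. Bax and Bak1, which open the mitochondrial outer membrane, were at 35.04, 29.6 and 36.7 and 148, 110.01 and 119 TPM in the CORT group and 45.5, 40.5 and 47.3 and 176, 181 and 170.3 TPM in the Veh group (limma adjusted p = 0.185 and 0.139). All 11 inhibitors of cell death tested were higher on average, by a median of 0.23, which was 0.13 without CORT2, 0.15 without Veh2 and 0.02 with Veh1 as the only Veh library, but none was called in limma, and none had an unadjusted p under 0.05. Xiap, which blocks caspases, was at 13.7, 23.9 and 18.6 TPM against 12.4, 12.4 and 14.01 TPM (log2 fold change 0.47, standard error 0.20, limma adjusted p = 0.264). Bcl2l15, a relative of BCL2, was at 59.7, 50.2 and 63.6 TPM against 67.5, 16.4 and 23.3 TPM (log2 fold change 0.93, standard error 0.47, limma adjusted p = 0.334), with Veh1 the highest of the 6 libraries, and with Veh1 as the only Veh library its difference turned to -0.23.

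**Figure D4:**
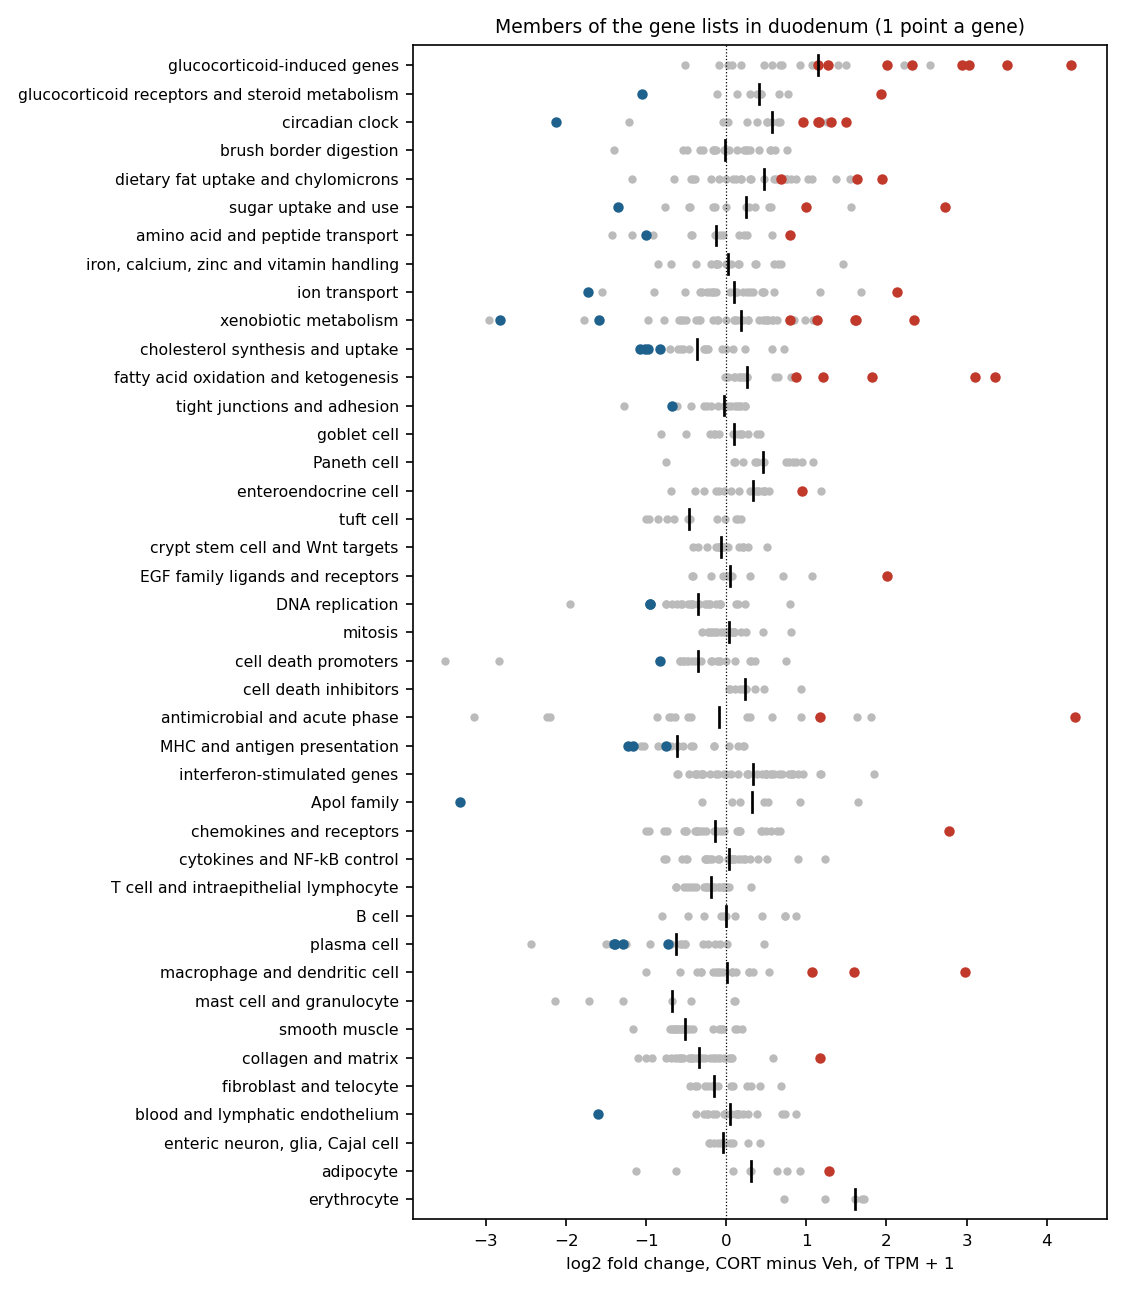
Log2 fold changes, CORT minus Veh on the scale log2(TPM + 1), of the tested members of 41 gene lists outside the Veh2 and Veh3 pattern, with 1 point per gene. Red points are called higher, blue points called lower and grey points not called, the short bar is the median of each list and the dotted line the median of all 13507 genes. The glucocorticoid-induced and erythrocyte lists have the highest medians, 1.14 and 1.61, and those of mast cells and granulocytes, plasma cells and antigen presentation the lowest, -0.68, -0.63 and -0.61. Without Veh2 the mast cell and granulocyte median was -0.01.

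Immunoglobulin variable segments, which give antibodies their specificity, were 27 of the 123 lower genes. In bulk tissue, fewer cells of a type and less RNA per cell cannot be told apart. Of 179 tested immunoglobulin variable segments outside the pattern, a family counted after its values were seen, 162 were lower on average in CORT. In 80, all CORT values lay below all Veh values (against 14.0% of all genes). Of the 179 segments, 27 were called lower (against 0.911%) and none higher, and their median was -1.52. Their summed level was 14078, 21036 and 12749.9 TPM in CORT1, CORT2 and CORT3 and 32829, 43292 and 41661 TPM in Veh1, Veh2 and Veh3. All CORT sums lay below all Veh sums, for heavy chain, kappa and lambda segments alike, of which 12, 14 and 1 were called. Variable segments are similar enough to share reads, and each mouse has its own set of clones, so single segments are uncertain. Ighv1-18 was at 22.6, 21.04 and 11.4 TPM against 127, 208 and 164 TPM (log2 fold change -3.14, standard error 0.29, limma adjusted p = 0.00621), Igkv1-135 at 149, 182 and 198 TPM against 826, 569 and 729.56 TPM (log2 fold change -1.99, standard error 0.19, limma adjusted p = 0.00621), and Igkv9-124 at 15.02, 20.2 and 22.4 TPM against 70.1, 84.3 and 96.1 TPM (log2 fold change -2.07, standard error 0.19, limma adjusted p = 0.00621). The other segments among the 12 lower genes with the smallest p were Igkv3-2 (-1.58), Igkv4-57-1 (-2.27) and Ighv1-42 (-3.01). Their calls were lost without Veh3 for Igkv3-2, without CORT3 for Igkv4-57-1 and without CORT1, CORT2 or CORT3 for Ighv1-42.

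Constant regions and other plasma cell genes were mostly lower as well. Of 20 tested plasma cell genes 18 were lower on average, 4 were called lower (against 0.911% of all genes) and none higher. The median was -0.63. Igha, the constant region of IgA, was at 3217, 3738 and 2425 TPM in CORT1, CORT2 and CORT3 and at 7143, 8683 and 8467 TPM in Veh1, Veh2 and Veh3 (log2 fold change -1.39, standard error 0.20, limma adjusted p = 0.0272). Igkc, the constant region of kappa light chains, was at 4342, 4529 and 2905 TPM against 9003, 10904 and 10802 TPM (log2 fold change -1.404, standard error 0.21, limma adjusted p = 0.0302). Tnfrsf17 (BCMA), a survival receptor of plasma cells, was at 0.97, 1.36 and 1.87 TPM against 4.69, 4.53 and 5.12 TPM (log2 fold change -1.28, standard error 0.18, limma adjusted p = 0.0267). Sdc1, a plasma cell surface proteoglycan that enterocytes also make, fell from 37.8 ± 1.35 to 22.5 ± 2.95 TPM (mean ± SD, n = 3; log2 fold change -0.73, standard error 0.13, limma adjusted p = 0.0462). Jchain, which links IgA dimers, was at 281, 488 and 212 TPM against 785, 965 and 883 TPM (log2 fold change -1.504, standard error 0.30, limma adjusted p = 0.0568). With Veh1 as the only Veh library the median was -0.93. Tnfrsf17 was called among the fits without a library only without CORT3, and Igha, Igkc and Sdc1 in none. Mature B cell genes had no common direction. Of 11 tested, 5 were higher and 6 lower, none was called in limma and none had an unadjusted p under 0.05. Cd79a, which plasma cells also carry, was at 3.63, 15.1 and 3.71 TPM against 9.73, 11.7 and 12.6 TPM and Ms4a1 (CD20) at 0.09, 3.79 and 0.18 TPM against 0.02, 0.06 and 0.24 TPM, with CORT2 the highest library for both. Fcmr, a receptor for IgM, had a log2 fold change of 0.88 (limma adjusted p = 0.440).

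Genes of antigen presentation, which show peptides to T cells, were mostly lower on average. Of 21 tested 17 were lower on average, 13 had all CORT values below all Veh values (against 14.0% of all genes), and 3 were called lower (against 0.911%), with a median of -0.61. Psmb9 and Psmb10, subunits of the immunoproteasome that cuts proteins into peptides, were at 64.6, 43.1 and 44.9 and 185, 106 and 131 TPM in the CORT group and at 119, 115 and 123 and 342, 290.05 and 294 TPM in the Veh group (log2 fold changes -1.23 and -1.16, standard errors 0.17 and 0.21, limma adjusted p = 0.0253 and 0.0469). Tap2, which pumps the peptides to MHC class I, was at 29.6, 23.6 and 26.4 TPM against 45.6, 44.97 and 45.2 TPM (log2 fold change -0.76, standard error 0.12, limma adjusted p = 0.0350). CORT1 was the highest CORT library for all 3 genes. The class II genes H2-Aa and H2-Ab1 were at 218, 296 and 243 and 426, 426 and 373 TPM against 362, 328 and 673 and 584, 404 and 885 TPM, with Veh3 the highest, and did not pass (limma adjusted p = 0.203 and 0.336). Psmb9 and Psmb10 kept their call only without CORT1, and Tap2 in none of the fits without a library.

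Interferon-stimulated genes held no called gene of 40 in limma, and their median was 0.33. At an unadjusted p under 0.05, 9 were higher (against 1186 of all 13507 genes) and 2 lower (against 1369). The median ran from 0.07 (without Veh1) to 0.65 (without Veh2) over the fits without a library, and was 0.80 with Veh1 as the only Veh library. Usp18, which removes ISG15 from proteins, was at 107, 60.4 and 85.3 TPM against 10.7, 43.9 and 22.3 TPM (log2 fold change 1.85, standard error 0.47, limma adjusted p = 0.0997), and Irf9, part of the interferon-activated transcription factor, at 37.2, 32.1 and 41.1 TPM against 19.8, 26.95 and 20.5 TPM (log2 fold change 0.698, standard error 0.16, limma adjusted p = 0.0850). Isg15 itself was at 194, 119 and 252 TPM against 53.7, 197 and 95.7 TPM, with Veh2 inside the range of the CORT libraries. In the 8 tested members of the Apol family, Apol10a was the only called gene (against 0.911% of all genes called lower), and 6 were higher on average.

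The antimicrobial and acute phase list had 2 called genes of 18, both higher (against 1.24% of all genes), and a median of -0.09. All CORT values lay above all Veh values in 5 members (against 12.3% of all genes) and below them in 6 (against 14.0%). At an unadjusted p under 0.05 in limma, 5 members were higher (against 1186 of all 13507 genes) and 5 lower (against 1369). The log2 fold changes ran from -3.15 to 4.36, and the lower members are not among those named here. Beside Lcn2, Lrg1, a secreted acute phase glycoprotein, rose from 2.25 ± 0.197 to 6.41 ± 1.31 TPM (mean ± SD, n = 3; log2 fold change 1.18, standard error 0.17, limma adjusted p = 0.0272), a call lost in all 6 fits without a library. Reg3b, a lectin that enterocytes and Paneth cells release against bacteria, was at 4442, 2676 and 1319 TPM in the CORT group and 5779, 100.03 and 2405 TPM in the Veh group, a wide spread in both groups (log2 fold change 1.16, standard error 1.40, limma adjusted p = 0.679). Of 30 chemokines and receptors outside the pattern, only Cxcl13, which attracts B cells, was called higher (against 1.24% of all genes). Cxcl13 was at 8.14, 31.3 and 16.1 TPM against 1.41, 0.88 and 2.44 TPM (log2 fold change 2.78, standard error 0.46, limma adjusted p = 0.0350), and of the fits without a library it was called only without CORT1. None of 29 genes of cytokines and NF-kB control was called in limma. At an unadjusted p under 0.05, 3 were higher (against 1186 of all 13507 genes) and 3 lower (against 1369). Il1r2, the decoy receptor of IL-1, was at 6.99, 7.3 and 7.66 TPM against 1.37, 2.72 and 4.01 TPM (log2 fold change 1.23, standard error 0.27, limma adjusted p = 0.0712), and Il15, which sustains intraepithelial lymphocytes, at 33.2, 61.3 and 47.6 TPM against 22.9, 24.5 and 25.6 TPM (log2 fold change 0.89, standard error 0.22, limma adjusted p = 0.0923).

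Among other immune cells, 3 of 20 tested genes of the macrophage and dendritic cell list were called higher (against 1.24% of all genes). Clec4f, a C-type lectin best known from the Kupffer cells of the liver, was at 10.3, 5.31 and 7.42 TPM in CORT1, CORT2 and CORT3, at 0.05 and 0.15 TPM in Veh1 and Veh2, and listed at 0 in Veh3 (log2 fold change 2.99, standard error 0.24, limma adjusted p = 0.00450). Mertk, a receptor for engulfing dead cells, was at 76.8, 82.3 and 73.6 TPM against 44.3, 30.4 and 35.4 TPM (log2 fold change 1.07, standard error 0.16, limma adjusted p = 0.0272), and Cd163, the haemoglobin scavenger receptor, at 2.01, 4.06 and 3.73 TPM against 0.17, 0.47 and 0.51 TPM (log2 fold change 1.598, standard error 0.26, limma adjusted p = 0.0329). The more general macrophage genes Cd68 and Adgre1 had overlapping groups, and both were lower than Mertk in every library. Which cells the Mertk transcripts came from was not tested. Cd68 was at 6.69, 13.8 and 10.1 TPM against 8.81, 15.8 and 13.7 TPM and Adgre1 (F4/80) at 2.48, 4.39 and 4.98 TPM against 2.71, 4.88 and 6.32 TPM, and the median over 20 tested genes was 0.01. Clec4f was called in all 6 fits without a library, Mertk only without Veh1 and Cd163 only without CORT1. None of 24 genes of T cells and intraepithelial lymphocytes was called in limma, 1 was lower at an unadjusted p under 0.05, and 21 were lower on average with a median of -0.19, which became 0.16 with Veh1 as the only Veh library. Trbc2, the constant region of the T cell receptor beta chain, was at 10.8, 13.4 and 11.1 TPM against 15.5, 17.96 and 18.8 TPM (log2 fold change -0.53, standard error 0.14, limma adjusted p = 0.107), Trac, that of the alpha chain, at 7.87, 10.01 and 6.62 TPM against 8.71, 13.7 and 18.4 TPM (log2 fold change -0.63, standard error 0.27, limma adjusted p = 0.266), and Cd3e, a subunit of the receptor complex, at 10.8, 11.5 and 11.3 TPM against 9.95, 16.3 and 15.9 TPM, where Veh1 was below all CORT libraries. Of 7 tested mast cell and granulocyte genes none was called in limma and 1 was lower at an unadjusted p under 0.05. Their median of -0.68 rested on Veh2, since it was -0.01 without Veh2 and 0.09 with Veh1 as the only Veh library. Prg2, an eosinophil granule protein, was at 3.52, 4.63 and 1.88 TPM against 8.58, 9.1 and 10.2 TPM (log2 fold change -1.29, standard error 0.25, limma adjusted p = 0.0538). Mcpt1, a protease of mucosal mast cells, was at 142 TPM in Veh2 and at most 4.36 TPM in the other 5 libraries.

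**Figure D5:**
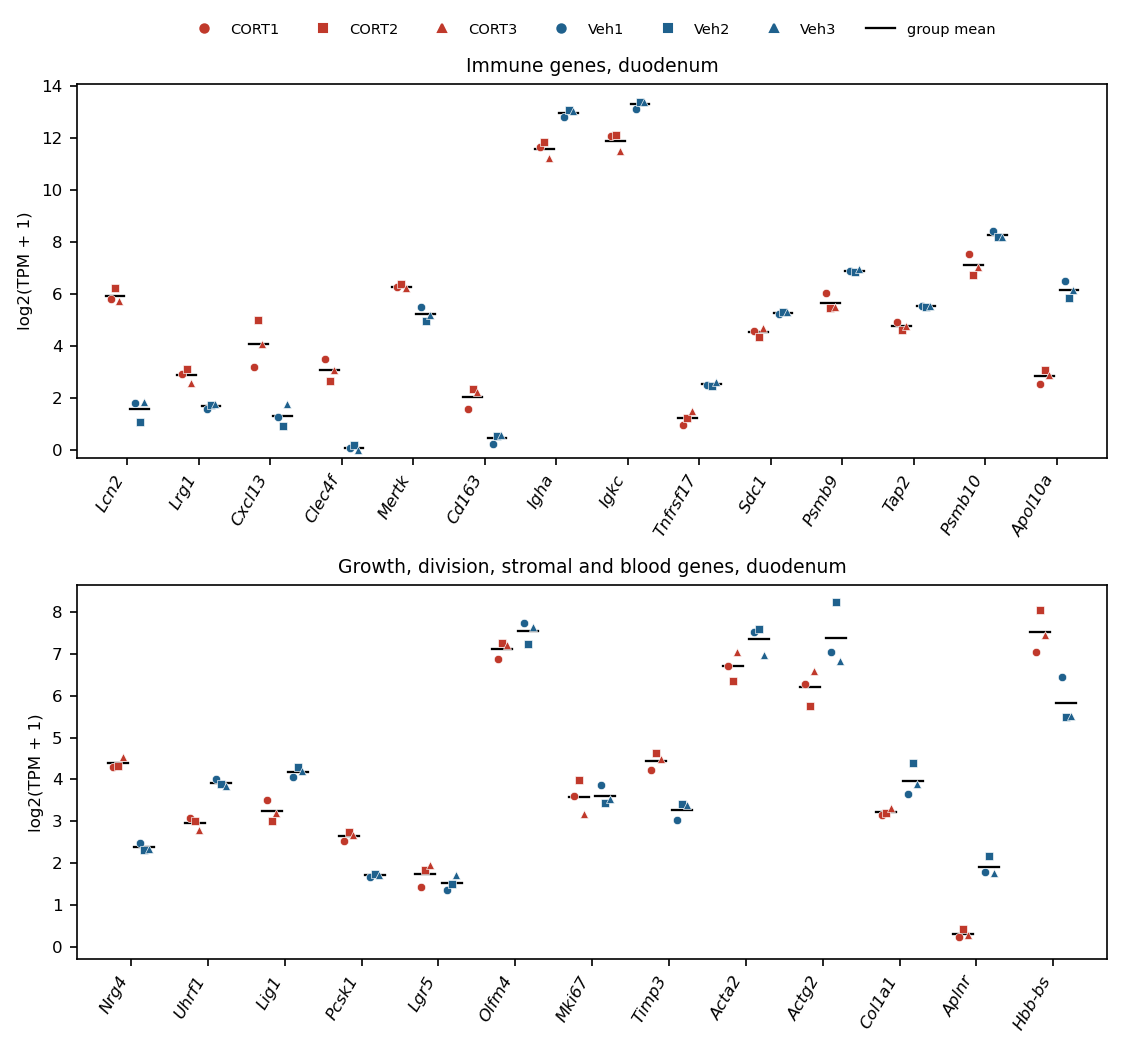
Values as log2(TPM + 1) of immune genes (top) and of genes of growth, division, stroma and blood (bottom), with 1 point per duodenum library and a bar at each group mean. CORT points lie above all Veh points from Lcn2 to Cd163 and below them from Igha to Apol10a, while those of Lgr5, Mki67, Olfm4 and Acta2 overlap.

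Smooth muscle genes, of the gut's muscle wall and vessels, were mostly lower on average. In limma, 7 of 22 smooth muscle genes were lower (against 1369 of all 13507 genes) and none higher (against 1186) at an unadjusted p under 0.05. Of the 22 genes 19 were lower on average, none was called in limma, and the median was -0.52. Their summed level ranged from 779 to 1176 TPM in the CORT group and from 1059 to 1922 TPM in the Veh group. Acta2, smooth muscle actin, was at 104, 81.7 and 132 TPM against 183, 192 and 126 TPM (log2 fold change -0.65, standard error 0.23, limma adjusted p = 0.197), and Actg2, the enteric form, at 76.7, 53.3 and 96.4 TPM against 132, 303 and 113 TPM with Veh2 far above the others (log2 fold change -1.16, standard error 0.39, limma adjusted p = 0.181). Synm, an intermediate filament protein, had the smallest p (log2 fold change -0.61, standard error 0.21, limma adjusted p = 0.177). Whether the share of muscle wall in the sample has a part in other differences was not tested. Of 31 genes of collagen and matrix 26 were lower on average, 11 had all CORT values below all Veh values (against 14.0% of all genes), none of them was called, and the median was -0.35, or -0.05 with Veh1 as the only Veh library. Col1a1 was at 7.87, 8.2 and 9.03 TPM against 11.5, 19.9 and 13.9 TPM (log2 fold change -0.75, standard error 0.20, limma adjusted p = 0.111) and Col1a2 at 12.4, 15.8 and 14.9 TPM against 12.99, 25.5 and 18.6 TPM, with Veh2 the highest library for both collagens. Timp3, an inhibitor of matrix proteases, was the only called member and was higher (against 1.24% of all genes). Timp3 was at 17.7, 23.8 and 21.3 TPM against 7.11, 9.69 and 9.51 TPM (log2 fold change 1.17, standard error 0.17, limma adjusted p = 0.0272), and was called in none of the 6 fits without a library.

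Fibroblast and telocyte genes (15 tested, median -0.15) and those of enteric neurons, glia and Cajal cells (10 tested, median -0.04) held no called gene in limma. At an unadjusted p under 0.05, 1 fibroblast gene was lower and 1 neural gene was higher. Sfrp1, a Wnt antagonist, was at 5.31, 6.5 and 7.82 TPM against 7.75, 10.7 and 9.57 TPM (log2 fold change -0.46, standard error 0.18, limma adjusted p = 0.225), Cd34, a surface marker of telocytes and vessels, at 4.19, 6.28 and 6.52 TPM against 6.82, 9.45 and 6.86 TPM (log2 fold change -0.39, standard error 0.20, limma adjusted p = 0.340), and Pdgfra, a growth factor receptor of fibroblasts, at 4.61, 10.01 and 8.95 TPM against 4.17, 6.41 and 5.75 TPM. Ret, the growth factor receptor of enteric neurons, was at 2.49, 2.71 and 2.39 TPM against 1.44, 1.96 and 1.5 TPM (log2 fold change 0.43, standard error 0.16, limma adjusted p = 0.218), and Snap25, a synaptic protein, at 2, 3.35 and 3.41 TPM against 1.79, 3.24 and 1.78 TPM (log2 fold change 0.27, standard error 0.25, limma adjusted p = 0.582). Of 22 endothelial genes, only Aplnr, the apelin receptor of vessels, was called lower (against 0.911% of all genes). Aplnr was at 0.17, 0.33 and 0.21 TPM against 2.43, 3.52 and 2.38 TPM (log2 fold change -1.600, standard error 0.20, limma adjusted p = 0.0189), and kept the call without CORT2 or Veh1 only. Pecam1, a marker of all endothelium, was at 12.2, 15.5 and 17.5 TPM against 10.9, 15.4 and 14.2 TPM, with overlapping groups.

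Fat cells and blood can be part of such samples, so their markers were measured. Fabp4, a fatty acid binding protein of adipocytes, endothelium and macrophages, was at 24.4, 36.4 and 34.99 TPM against 11.9, 14.4 and 10.96 TPM (log2 fold change 1.28, standard error 0.19, limma adjusted p = 0.0272) and kept its call only without CORT1. Adipoq, which only adipocytes make in quantity, was at 0.78, 0 and 3.02 TPM against 0.81, 0.05 and 0 TPM, and was listed at 0 in CORT2 and Veh3. Of 9 tested adipocyte genes 7 were higher on average and Fabp4 alone was called (against 1.24% of all genes called higher). All 5 erythrocyte genes had all CORT values above all Veh values (against 12.3% of all genes). Their median was 1.61, or 0.81 with Veh1 as the only Veh library. In limma all 5 were higher at an unadjusted p under 0.05 (against 1186 of all 13507 genes), but none passed the adjusted limit. Their summed level ranged from 366 to 706 TPM in the CORT group and from 119 to 247 TPM in the Veh group, and no member was at 0. Hbb-bs, a beta globin, was at 132, 267 and 174 TPM against 86.9, 44.2 and 44.9 TPM (log2 fold change 1.698, standard error 0.34, limma adjusted p = 0.0606), and Hba-a2, an alpha globin whose twin Hba-a1 shares its reads, at 163, 299 and 196 TPM against 106, 50.1 and 49.4 TPM (log2 fold change 1.71, standard error 0.35, limma adjusted p = 0.0617). The part of blood left in the tissue in the immune and vessel results was not tested.

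Fkbp5, Lcn2, Nrg4 and Cyp2c55 were chosen from earlier results of these libraries. The response of these 4 genes was compared with that of the liver under the same treatment in 1 limma model over all 12 libraries. The sources used here do not say whether both tissues came from the same mice, and the model treated all libraries as independent. In liver Fkbp5 was at 273, 249 and 221 TPM in CORT1, CORT2 and CORT3 and 7.14, 12.7 and 19.5 TPM in Veh1, Veh2 and Veh3, so that its log2 fold change was 4.23 against 4.300 in duodenum. Nrg4 had 2.33 in liver and 2.002 in duodenum, and Lcn2 6.12 and 4.36. The differences between tissues were 0.07, -0.33 and -1.76, with standard errors of 0.51, 0.22 and 0.93, and did not pass (limma adjusted p = 0.961, 0.483 and 0.349). Lcn2 was uneven in liver, at 1119, 3206 and 2728 TPM against 111, 14.3 and 16.1 TPM, with Veh1 above the other Veh libraries. Cyp2c55 did differ. It was at 1.45, 0.82 and 1.22 TPM against 1.82, 2.59 and 2.4 TPM in liver, a log2 fold change of -0.599 from a low level, and -2.83 in duodenum, a difference of -2.23 (standard error 0.27, limma adjusted p = 0.00141). Because the liver level lies near the pseudocount of 1 TPM, its change is understated on this scale.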

How the data were processed

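TruSeq libraries of total RNA were sequenced as paired reads. Read trimming by the authors used SeqPrep and Sickle, alignment HISAT2 in orientation mode, assembly StringTie and quantification RSEM, and TPM for each gene and library were deposited with 2 decimals. The submitters' processing notes name GRCm39, while versions and annotation are not given in the sources used here. The authors called differential genes with DESeq2, whose results were not used here. Without read counts the depth of a library is unknown, and precision comes from the 3 libraries of a group.

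From the TPM, log2(TPM + 1) was fitted with limma (version 3.58.1, under R 4.3.3), by lmFit and eBayes with an intensity trend, on treatment alone, over the 13607 genes whose mean reached 1 TPM in a group. P-values are limma's, adjusted over these genes by the Benjamini-Hochberg method, with limits of 0.05 and a fold change of 1.5. They weigh the group difference against the spread between libraries of a group, on which information is shared across genes. The fit was also run on simulated data with independent libraries and planted changes. Those data held no contrast like that of Veh2 and Veh3, so they cannot show how the fit behaves with it. Tables were made with pandas 2.3.3. The tissues were compared in 1 limma model over 12 libraries for 4 genes, with no term for the mouse. Members and the 43 gene lists were chosen with earlier results of these data known. The genes named were the 4 compared with liver, up to 4 called members of a list per direction (or the 2 with the smallest p), the first 2 genes of a cell type list, 12 leading genes per direction without gene models, and the 10 most abundant genes of the Veh2 and Veh3 pattern. Results of some genes are not reported here. Other genes named were chosen after their values were seen. Promoter sequences are from RefSeq (GRCm38.p6), and coordinates of the builds were not combined. Alternatives were another pseudocount, other filters and scalings, removal of pattern and acinar genes, a replicate block, other limits, no trend, and each library left out.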

Additional observations from a re-analysis of the deposited data

Results flagged for a closer look

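The effect of CORT on Cyp2c55 differed between the tissues, by the treatment by tissue term of the limma model, which treated all libraries as independent. The difference, duodenum minus liver, was -2.23 on the log2 scale (standard error 0.27, limma adjusted p = 0.00141 over 14806 genes), and Cyp2c55 was lower in CORT in both tissues. The gene was chosen from earlier results of these libraries. Its liver values, 0.82 to 2.59 TPM, lie near the pseudocount of 1 TPM. The liver change is therefore understated on this scale, and the difference between tissues depends on it.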

How the results depend on the processing

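The number of calls moved between the alternative fits, and depth could not be weighed since TPM hold no counts. The 290 calls kept their direction in every fit that held the gene. Since their CORT and Veh values did not overlap, no fit with fewer libraries could reverse them. Fits with other filters, without a trend or with the replicate block do not alter the fold changes. With no filter on low values, 52 of 24876 tested genes were called (38 higher, 14 lower). With the filter, 1332 (665 and 667) had an unadjusted p under 0.05 and a fold change over 1.5. Over the fits without 1 library the calls ranged from 48 to 151, the higher ones from 35 to 107 and the lower ones from 13 to 44. With Veh1 as the only Veh library, an alternative added after seeing the data that assumes Veh1 to vary like the CORT libraries, 11 were called (1 and 10), of which 1 was among the 290, and Bcl2l15 reversed to -0.23. With a pseudocount of 0.1 TPM 313 genes were called (281 of the 290), with a mean of at least 5 TPM 338 (252), with median-ratio scaling 307 (277), without a trend 257 (238), and after removal of pattern and acinar genes 351 (285), of which 170 were higher and 181 lower. The cause of these shifts was not tested, beyond the fewer genes or libraries that some fits hold. Of 110 named genes, 109 kept their call status with the other pseudocount, 105 with median-ratio scaling and 64 without the filter, with no reversal. The pattern held 200 genes at 1.5 times and 69 at 3 times. The treatment by tissue difference of Fkbp5 ranged from -0.26 (without Veh2) to 0.41 (without Veh3) and was -0.10 without CORT1, while that of Cyp2c55 passed in all 6 of these fits and with the other pseudocount.

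Labels give both groups replicate numbers 1 to 3. Same-numbered libraries deviated from their group means with correlations over genes of 0.080, 0.081 and 0.001. Veh1 and Veh2 correlated best with the CORT library of the same number, while Veh3 correlated best with CORT2. Deviations from a mean of 3 libraries constrain each other, so these correlations cannot decide whether the numbers are pairs. The main fit did not take the numbers as pairs. With the replicate block 61 genes were called (39 higher, 22 lower), 55 of them among the 290.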
